A study of Mus musculus with 32 samples.

Results

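Genes named as collagen, laminin or integrin chains were followed through the first wave of spermatogenesis in the mouse. They were taken by symbol, as every protein-coding gene of GENCODE release M21 whose name begins with Col, a number and a chain number, with Lama, Lamb or Lamc and a number, with Itga, or with Itgb and a number. The rule found 68 of the 20368 genes in the gene table, namely 38 collagen chains, 9 laminin chains, 18 integrin chains and 3 genes that share only the symbol. These 3 were Col4a3bp, a ceramide transfer protein, Itgb1bp1, a cytoplasmic protein that binds the tail of integrin beta 1, and Itgb3bp, a centromere protein. A further 18 matching genes, 6 collagens, 2 laminins and 10 integrin-named genes, were among the 86 in the transcript table but stayed below the filter of the gene table, which asks for 3 TPM in at least 1 juvenile mouse.

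RNA was sequenced from germ cells of C57BL/6J males, 3 mice at 8 days post partum (dpp) and 5 each at 10, 12, 14, 16 and 18 dpp, with 1 library per mouse. Pachytene and diplotene spermatocytes of males aged 9 weeks gave 4 more samples, each a pool of 6 mice enriched by sedimentation at unit gravity (STA-PUT). Other mice of 8 dpp were left out by the authors because their data matched their age group poorly. The juvenile cells were released from seminiferous tubules by enzyme digestion after interstitial cells had been washed off. By the authors' count of stained cells, the great majority in each sample were germ cells. TPM, the unit of all levels here, is a transcript's share of its library corrected for transcript length, so that genes can be compared with each other, but it keeps no read number and the depth behind each value is unknown.

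Collagens are trimers of alpha chains that form fibrils, sheets or filaments, or that span the membrane. Laminins are trimers of an alpha, a beta and a gamma chain and, with collagen IV, make up the basement membrane. Integrins are pairs of an alpha and a beta chain that bind such matrix from the cell surface. In the testis the basement membrane lies between the seminiferous epithelium and the peritubular myoid cells, and both Sertoli cells and myoid cells are known to lay it down. Spermatogonia rest on it, and spermatocytes lose contact with it as meiosis proceeds.

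Markers of Sertoli and peritubular cells were present in the juvenile samples beside those of germ cells. The 5 markers of pachytene spermatocytes summed to between 138 and 195 TPM at 8 dpp, between 3021 and 4926 TPM at 18 dpp and between 9493 and 9822 TPM in adult samples. The 8 Sertoli cell markers summed to between 6941 and 7825, between 3271 and 4255 and between 296 and 435 TPM in the same 3 groups, none was at 0 in adult samples, and 7 were lower at 18 than at 8 dpp and 1 was higher. The 5 peritubular markers summed to between 1051 and 1160.0, between 524 and 1034 and between 5.57 and 10.7 TPM, and only Acta2, smooth muscle actin, was lower at 18 than at 8 dpp (adjusted p under 0.05). Of 6 Leydig and 4 endothelial markers 3 and 1 were higher at 18 than at 8 dpp and 0 and 1 were lower, and none of the 5 red blood cell markers differed by the test. In bulk samples such as these, fewer cells of a type and less RNA per cell cannot be told apart. At 18 dpp mice 4 and 5 stood apart from mice 1 to 3, with pachytene markers at 3103 and 3021 TPM against 4857 to 4926 TPM. Peritubular markers were at 1006 and 1034 TPM against 524 to 586 TPM, and Sertoli markers at 4198 and 4255 TPM against 3271 to 3409 TPM.

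The youngest and the oldest juvenile mice were compared first, to cover the whole age window. Most chains were lower at 18 than at 8 dpp. With limma across all genes and a Benjamini-Hochberg adjusted p under 0.05, 42 of the 68 genes (61.8%) were lower at 18 dpp, where 36.3% of all genes tested were lower. Only 8 of the 68 (11.8%) were higher, where 31.8% of all genes were higher. The median difference in log2(TPM + 1) was -0.60 over the 68 genes and -0.09 over all genes. The highest mouse at 18 dpp was below the lowest at 8 dpp in 34 of the 68 genes (32% of all genes), and the lowest at 18 dpp was above the highest at 8 dpp in 8 (29% of all genes). Without the filter, 41 of the 86 matching genes were lower (15.8% of all genes) and 10 were higher (14.9%). By family, 24 of 38 collagen chains, 8 of 9 laminin chains and 9 of 18 integrin chains were lower, and 4, 0 and 2 were higher.

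Genes that passed in neither direction were mostly of low level. The median level over the 28 mice was 4.25 TPM for these 18 genes, 28.6 TPM for the 42 lower genes and 3.17 TPM for the 8 higher genes. Lamb2 and Col15a1 are exceptions of high level. Of the 8 higher genes, Itgae, Col20a1, Col28a1 and Itgb2 reached the 3 TPM of the filter only at 14 dpp or later. They thus entered the test through ages where they were high, and their rises are not independent of the filter. With mice 1 to 3 of each age alone, and so without the mice that stood apart at 18 dpp, 48 genes were lower and 8 were higher.

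**Figure D1:**
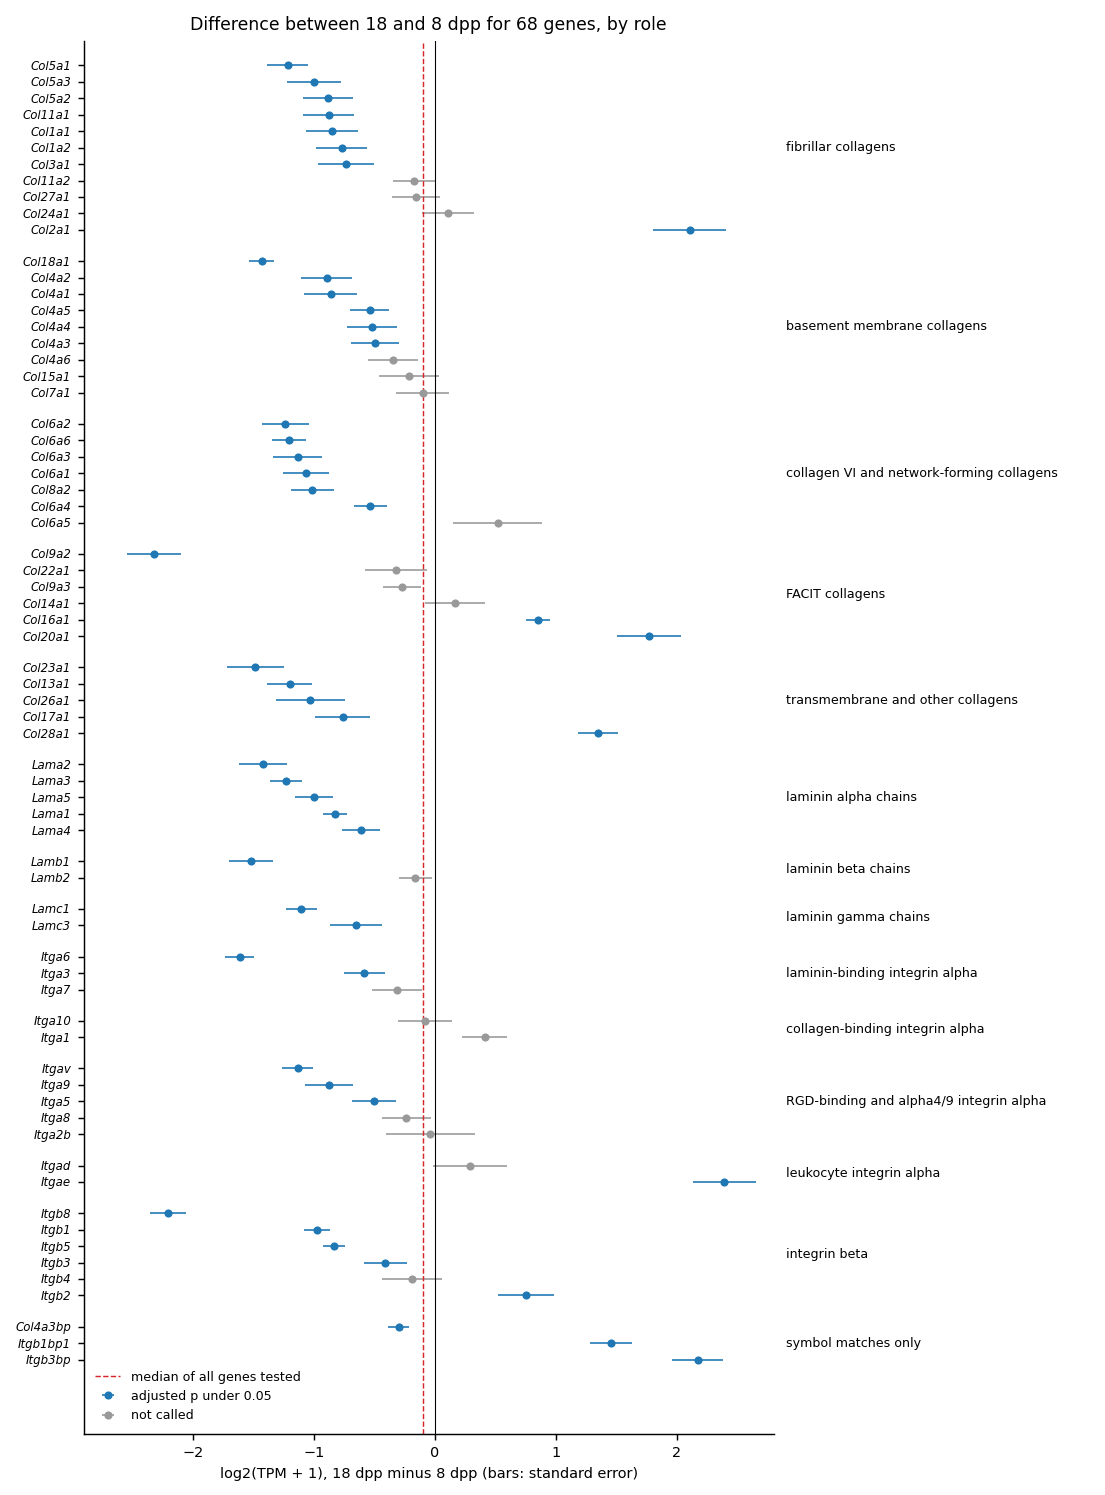
Difference in log2(TPM + 1) between 18 dpp (5 mice) and 8 dpp (3 mice) for the 68 genes, grouped by role, with points for the limma estimate and bars for its standard error (blue, adjusted p under 0.05, and grey, not called). Most points lie left of the dashed median of all genes at -0.09, all 5 laminin alpha chains among them, while Itgae at 2.39, Itgb3bp at 2.17 and Col2a1 at 2.11 lie farthest to the right.

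Mice 4 and 5 at 18 dpp were nearer to the younger mice in most of these genes. Both were above all of mice 1 to 3 in 42 of the 68 genes (32.7% of all genes) and both were below them in 8 (25.2% of all genes). Among the 42 genes lower at 18 than at 8 dpp, 34 were higher in mice 4 and 5 and 0 were lower. Among the 8 genes higher at 18 dpp, 6 were lower in mice 4 and 5 and 1, Itgb2, was higher. The marker sums moved with this split. The pachytene sum was lower in both mice 4 and 5, and the peritubular, Sertoli, Leydig, endothelial, macrophage and spermatogonium sums were higher in both. Spermatogonium markers, for example, were at 281 and 294 TPM against 212 to 222 TPM. The red blood cell sums overlapped. The part of these cell types in the split was not tested.

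Fibrillar collagens form the banded fibrils of connective tissue. Col1a2, a chain of collagen I with the highest level among them, was at 324, 356 and 339 TPM in the 3 mice of 8 dpp and at 179, 155, 133, 274 and 307 TPM in the 5 mice of 18 dpp. All mice of 18 dpp were below all mice of 8 dpp, and mouse 5 came closest to them. The difference in log2(TPM + 1) was -0.77 ± 0.21 (SE, limma, adjusted p = 0.00215). Col1a1, the other chain of collagen I, went from 192 ± 24.3 to 111 ± 37.4 TPM (SD, n = 3 and 5), a difference of -0.85 ± 0.22, and Col3a1, the chain of collagen III, differed by -0.73 ± 0.23. The ratio of Col1a2 to Col1a1 lay between 1.54 and 2.09 over all 28 mice, so that the levels of both chains moved together.

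The minor fibrillar chains were lower in level and fell too. Col5a1, a chain of collagen V that sits inside collagen I fibrils, was at 41.8, 40.7 and 41.1 TPM at 8 dpp and at 15.8, 13.7, 11.9, 22.8 and 24.9 TPM at 18 dpp, with no overlap between the ages. In all, 7 of the 11 fibrillar chains were lower and 3, Col11a2, Col24a1 and Col27a1, were not called. The exception was Col2a1, the collagen of cartilage, which is described with the other rising genes.

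Among the basement membrane collagens Col18a1 had the highest level. It encodes the chain whose end is cut off as endostatin. Its level was 419.9, 430.1 and 418 TPM at 8 dpp and 143, 138, 138, 193 and 176 TPM at 18 dpp, so that each mouse of 18 dpp had less than the lowest mouse of 8 dpp. The difference was -1.43 ± 0.11 (SE, limma, adjusted p = 3.86e-12), and the mean was lower at each later age, with 404 TPM at 10, 332 at 12, 297 at 14 and 253 TPM at 16 dpp.

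Col15a1, its closest relative, did not follow this course. It was at 36.3 ± 5.11 TPM at 8 dpp, 61 ± 13.9 TPM at 12 dpp and 33.4 ± 14.9 TPM at 18 dpp, and the difference between 18 and 8 dpp did not pass (-0.21 ± 0.25, limma adjusted p = 0.458). Within each mouse of 8 dpp the ratio of Col15a1 to Col18a1 lay between 0.0785 and 0.0979, and within each mouse of 18 dpp between 0.155 and 0.3.

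Col4a1 and Col4a2 encode the chains of the most widespread collagen IV trimer. Their annotated starts lie head to head on chromosome 8, and the first exons of Col4a1-201 on the minus strand and of Col4a2-201 on the plus strand share 22 bases. These bases are shown because both genes start there, and they read as follows on the plus strand of GRCm38.p6 (RefSeq), chr8:11312805-11312826, with capitals for a GGGCGG motif (GC box).
Col4a1/Col4a2: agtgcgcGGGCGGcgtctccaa
Col4a1 was at 282, 304 and 264 TPM at 8 dpp and at 129.9, 110.1, 113, 237 and 237 TPM at 18 dpp. Col4a2 was at 196, 221 and 186 TPM and at 88.7, 78.5, 76.2, 157 and 171 TPM. In both genes mice 4 and 5 of 18 dpp were nearer to the mice of 8 dpp than mice 1 to 3, and the ages did not overlap. The differences were -0.86 ± 0.22 and -0.89 ± 0.21 (SE, limma, adjusted p = 0.00117 and 0.00052). Over all 28 mice the ratio of Col4a1 to Col4a2 stayed between 1.29 and 1.51.

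The other collagen IV chains, which form the trimers of specialised basement membranes, had their highest mean at 14 dpp. Col4a3 had means of 56.4 ± 5.99, 77.3 ± 15.2 and 40.7 ± 10.9 TPM at 8, 14 and 18 dpp. Col4a4, its head-to-head partner, had 74.2 ± 3.96, 104 ± 21.6 and 53.6 ± 16.7 TPM. In both, mice of 8 and 18 dpp overlapped although the differences passed (limma adjusted p = 0.0294 and 0.03). Col4a5 was lower at 18 dpp (-0.54 ± 0.16) and Col4a6 was not called (-0.34 ± 0.20). No step between neighbouring ages up to 16 dpp was called for Col4a1 to Col4a6, and all 6 chains were lower at 18 than at 16 dpp.

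Collagen VI makes beaded filaments beside the basement membrane, and its classical chains fell together. Col6a1 was at 175, 189 and 185 TPM at 8 dpp and at 74.2, 65.5, 66.3, 112 and 137 TPM at 18 dpp. Col6a2 went from 123 ± 7.46 to 54.2 ± 19.8 TPM and Col6a3 from 33.4 ± 0.872 to 15.5 ± 5.81 TPM, again with every mouse of 18 dpp below those of 8 dpp. The differences of Col6a1, Col6a2 and Col6a3 were -1.06 ± 0.19, -1.23 ± 0.19 and -1.13 ± 0.20. Of the 7 collagen VI and network-forming chains 6 were lower, and Col6a5, at no more than 1.56 TPM in any mouse of 18 dpp, was not called.

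Fibril-associated and transmembrane collagens were mostly at low levels. The largest fall of any of the 68 genes was that of Col9a2, a chain of the cartilage collagen IX, which was at 6.79, 8.49 and 5.72 TPM at 8 dpp and at 0.39, 0.44, 0.37, 0.89 and 0.94 TPM at 18 dpp (-2.32 ± 0.23, limma adjusted p = 8.09e-10). Col9a3, another chain of collagen IX, had means of 8.58 and 6.85 TPM and was not called. It shares 234 exonic bases with Tcfl5 on the opposite strand, which had means of 32.4 and 228 TPM, and whether the libraries kept strand is not given in the sources used here. Among the transmembrane and other collagens Col13a1, Col17a1, Col23a1 and Col26a1 were lower, with Col23a1 going from 6.62 ± 0.994 to 1.88 ± 1.14 TPM and Col26a1 from 10.5 ± 0.0603 to 5.09 ± 2.62 TPM. Col28a1 was higher.

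**Figure D2:**
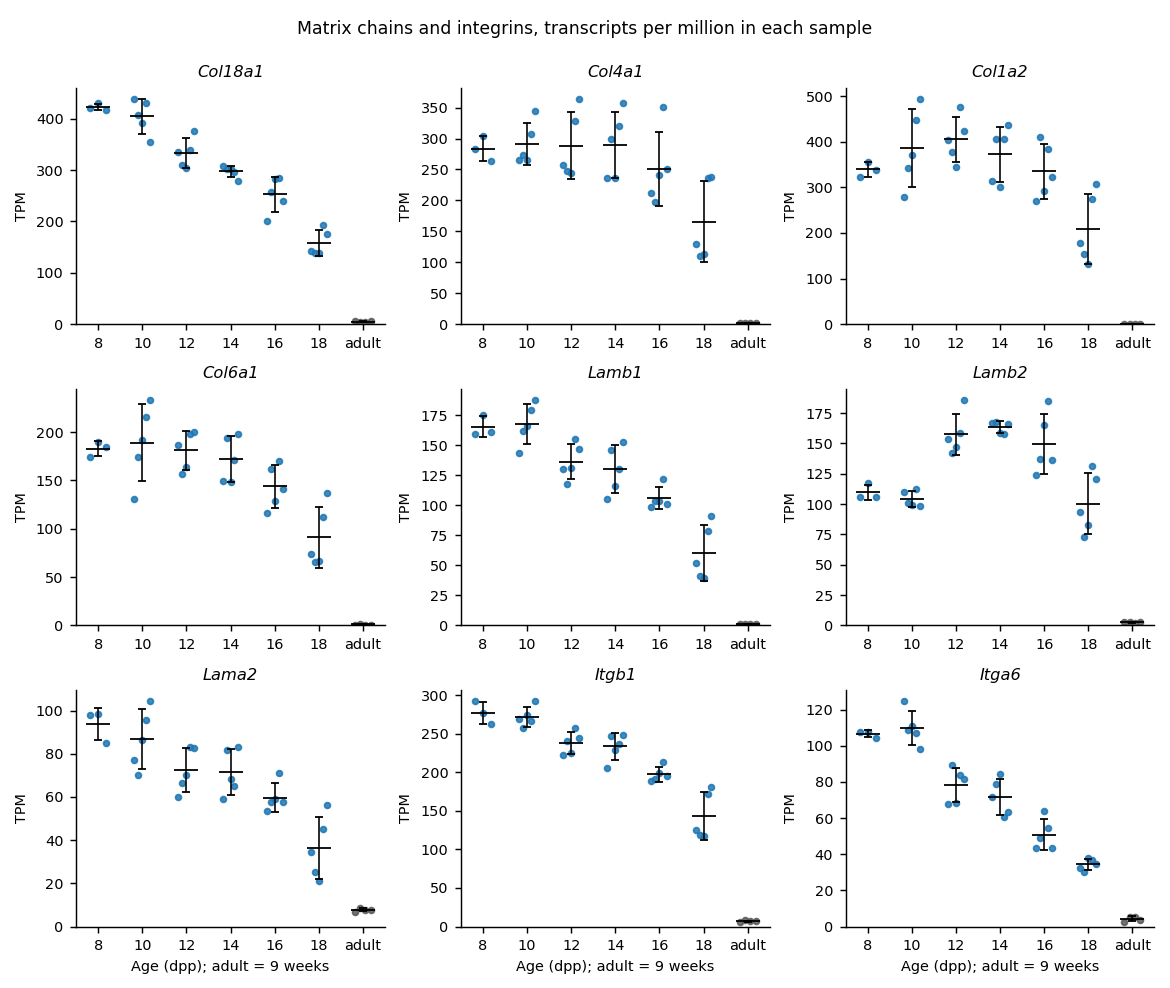
TPM of 9 matrix and integrin chains in every sample, by age, with points for mice (adult points for pools of 6 mice) and black lines for the mean and SD. The means of Col18a1 and Itga6 are lower at each step from 10 dpp on, Col4a1 and Col1a2 drop mostly between 16 and 18 dpp, Lamb2 is highest at 12 to 16 dpp, and all 9 are low in adult samples.

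All 5 laminin alpha chains were lower at 18 than at 8 dpp. Lama2, the chain of the muscle laminin, had the highest level and the largest difference, with 97.8, 98.5 and 85.2 TPM at 8 dpp and 34.6, 25.4, 21.2, 45.3 and 56.1 TPM at 18 dpp (-1.42 ± 0.20, limma adjusted p = 5.61e-07). The ages did not overlap, and mice 4 and 5 had the highest levels at 18 dpp. Lama1, the embryonic chain, was at 32.3, 37.6 and 33 TPM and at 19.9, 18.1, 16.4, 20.4 and 19.8 TPM (-0.83 ± 0.10), and here mice 4 and 5 did not stand apart.

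The beta chains differed from each other. Lamb1 was at 159, 175 and 161 TPM at 8 dpp and at 51.7, 41.2, 39.5, 78.5 and 91.3 TPM at 18 dpp, with no overlap (-1.52 ± 0.18, limma adjusted p = 3.94e-08). Lamb2, the chain known from synaptic and kidney basement membranes, was at 106, 117 and 106 TPM and at 93.5, 72.7, 82.5, 132 and 121 TPM, and its mice overlapped (-0.16 ± 0.14, limma adjusted p = 0.299). With median-of-ratios scaling that difference was 0.013, so its sign is not fixed. Between 10 and 12 dpp Lamb2 rose from 104 ± 6.63 to 157 ± 16.9 TPM (0.59 ± 0.12, limma adjusted p = 0.000642), while Lamb1 had means of 167 ± 16.8 and 136 ± 14.7 TPM. The ratio of Lamb1 to Lamb2 lay between 1.5 and 1.52 in mice of 8 dpp and between 1.3 and 1.89 in mice of 10 dpp. It lay between 0.79 and 0.976 in mice of 12 dpp and between 0.479 and 0.757 in mice of 18 dpp. Every mouse up to 10 dpp was above 1 and every mouse from 12 dpp on was below it.

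Parts of the RefSeq windows around the starts of both genes, each cut before an annotated transcript start, are shown for this contrast in level (GRCm38.p6, plus strand, Lamb1 chr12:31265043-31265233 and Lamb2 chr9:108479612-108479856). The Lamb2 gene is annotated from chr9:108479736 on, so part of its stretch lies inside the gene. Capitals mark every match, on either strand, to the letters CCAAT, to the GC box GGGCGG, to TGACG, part of the cyclic AMP response element, or to a MYB motif, TAACNG.
Lamb1: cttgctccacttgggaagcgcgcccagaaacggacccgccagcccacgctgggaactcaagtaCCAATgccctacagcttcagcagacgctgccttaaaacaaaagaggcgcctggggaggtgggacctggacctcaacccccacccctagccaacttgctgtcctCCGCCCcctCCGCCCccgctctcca
Lamb2: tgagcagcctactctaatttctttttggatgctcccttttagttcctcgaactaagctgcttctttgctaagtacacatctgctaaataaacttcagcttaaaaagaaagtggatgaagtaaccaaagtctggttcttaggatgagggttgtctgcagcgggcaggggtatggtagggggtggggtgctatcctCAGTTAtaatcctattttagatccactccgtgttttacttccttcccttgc
The stretch of Lamb1 holds 1 CCAAT and 2 GC boxes, and that of Lamb2 holds 1 MYB motif. The full window of Lamb2 also holds 1 TGACG, which lies beyond the stretch shown. RefSeq windows around the start, which may be several per gene, were at hand for 47 of the 68 genes and gave 50 windows. A GC box was in 24 of the 33 windows of genes lower at 18 dpp (72.7%) and in 1 of the 5 windows of genes higher at 18 dpp. It was in 30 of the 50 (60%) and in 35.7% of all 32851 windows, which cover 27025 genes and not only those above the filter. A MYB motif was in 2 of the 33 (6.06%), in 1 of the 5, in 5 of the 50 (10%) and in 23.3% of all windows. The letters CCAAT were in 12 of the 33 (36.4%), in 1 of the 5, in 14 of the 50 (28%) and in 37.4% of all windows. TGACG was in 4 of the 33 (12.1%), in 0 of the 5, in 8 of the 50 (16%) and in 20.8% of all windows.

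Both gamma chains fell. Lamc3 had the higher level, at 144, 157 and 137 TPM at 8 dpp and 78.1, 64.9, 68.9, 132 and 146 TPM at 18 dpp, and the ages overlapped through mouse 5 alone (-0.65 ± 0.22, limma adjusted p = 0.00986, and 0.075 with only the 2 ages in the model). Lamc1, the gamma chain of most laminins, fell without overlap from 68.2 ± 0.429 to 32.1 ± 8.69 TPM (-1.10 ± 0.13, limma adjusted p = 3.01e-08). The ratio of Lamc3 to Lamc1 had means of 2.14 ± 0.14 and 2.02 ± 0.296 (SD) in the mice of 8 and 10 dpp and of 2.85 ± 0.378 and 3 ± 0.506 in those of 12 and 18 dpp. Lamc3 shares 382 exonic bases with Gm13441 on the opposite strand (mean 24.5 TPM), so part of its level and of this ratio is uncertain.

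Of the integrins that bind laminin, Itga6 had the highest level. Integrin alpha 6 is a surface marker used to enrich spermatogonial stem cells. It was at 108, 108 and 104 TPM at 8 dpp and at 32.1, 30.4, 37.7, 36.6 and 34.9 TPM at 18 dpp (-1.61 ± 0.12, limma adjusted p = 3.02e-12). Mice 4 and 5 lay within the range of mice 1 to 3 here, unlike their Col4a1 level. Itga6 was lower at 12 than at 10 dpp (-0.49 ± 0.10), at 16 than at 14 dpp (-0.49 ± 0.10) and at 18 than at 16 dpp (-0.54 ± 0.10). The 6 spermatogonium markers, all lower at 18 than at 8 dpp, summed to between 520.5 and 611 TPM at 8 dpp. They summed to between 459 and 474 TPM at 12 dpp and between 212 and 294 TPM at 18 dpp. Of them 1, 4 and 6 were lower in the steps where Itga6 fell (9.39%, 11.3% and 30.6% of all genes). Of the 8 Sertoli markers 4, 6 and 7 were lower in these steps, and 1 was higher from 10 to 12 dpp. The part of either cell type in the fall of Itga6 was not tested. Itga3 fell too (-0.58 ± 0.17), and Itga7 was not called.

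Other alpha chains were lower in level. Itgav, which pairs with several beta chains to bind RGD-containing proteins, was at 31.1, 30.7 and 27.3 TPM at 8 dpp and at 11.8, 10.4, 13.4, 13.5 and 16.6 TPM at 18 dpp (-1.13 ± 0.13, limma adjusted p = 1.59e-08), with no overlap. Itga5 and Itga9 were lower, and Itga8 and Itga2b were not called. Neither of the collagen-binding chains above the filter was called, Itga1 having means of 4.19 ± 0.64 and 5.93 ± 0.976 TPM (0.41 ± 0.19, limma adjusted p = 0.0527).

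Most beta chains fell. Itgb1, the partner of most alpha chains, was at 292, 277 and 263 TPM at 8 dpp and at 126, 119, 118, 172 and 181 TPM at 18 dpp (-0.97 ± 0.10, limma adjusted p = 5.10e-09). Itgb5 fell from 103 ± 2.14 to 58.3 ± 10.7 TPM. Itgb8, which with alpha V activates latent TGF beta, was at 17, 18.4 and 16.8 TPM at 8 dpp and at 3.04, 2.75, 2.37, 2.86 and 4.1 TPM at 18 dpp (-2.20 ± 0.15, limma adjusted p = 4.89e-13). None of these genes overlapped between the ages. In the mice of 8 dpp the ratio of Itgb8 to Itgav lay between 0.546 and 0.613, and in those of 18 dpp between 0.177 and 0.265.

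Itgb2, the beta chain of leukocytes, was higher at 18 dpp. It was at 0.79, 1.13 and 0.6 TPM at 8 dpp and at 1.25, 1.85, 1.56, 2.55 and 3.78 TPM at 18 dpp (0.75 ± 0.23, limma adjusted p = 0.00586). Of the 5 macrophage markers 4 were higher at 18 than at 8 dpp and none was at 0 in adult samples. They summed to between 26.4 and 33.3 TPM at 8 dpp, between 39.7 and 78.6 TPM at 18 dpp and between 3.56 and 5.46 TPM in adult samples, with mice 4 and 5 highest at 18 dpp as in Itgb2, and their part in the Itgb2 level was not tested.

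The risers with the highest level at 18 dpp were symbol matches only. Itgb1bp1 was at 25, 30.2 and 28.7 TPM at 8 dpp and at 102, 95.7, 97.7, 62.6 and 49 TPM at 18 dpp (1.46 ± 0.17, limma adjusted p = 2.95e-08). Itgb3bp was at 9.31, 9.71 and 8.24 TPM and at 46.9, 57.5, 57.5, 42.9 and 25.8 TPM (2.17 ± 0.21, limma adjusted p = 9.22e-10). In both genes all mice of 18 dpp were above all mice of 8 dpp and mice 4 and 5 were the lowest of the 5. The remaining symbol match, Col4a3bp, was slightly lower at 18 dpp (-0.30 ± 0.09, limma adjusted p = 0.00357), with means of 45.9 and 37.1 TPM, and this call was lost with median-of-ratios scaling (limma adjusted p = 0.176).

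Each of the rising pair starts close to a gene on the other strand. The annotated starts of Itgb1bp1-201 and of Cpsf3-201, whose product cleaves pre-mRNA ends, leave a gap of 73 bases (chr12:21286285-21286357), and those of Itgb3bp-204 and Efcab7-205 a gap of 11 bases (chr4:99829187-99829197). The gaps are shown for these shared starts, in the direction of the Itgb gene (GRCm38.p6, RefSeq, minus strand), with capitals for a match to the MYB motif.
Itgb1bp1/Cpsf3: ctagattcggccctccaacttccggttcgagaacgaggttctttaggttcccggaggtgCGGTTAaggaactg
Itgb3bp/Efcab7: cggcgagctgc
Efcab7 was higher at 18 dpp as Itgb3bp was, with means of 5.97 ± 0.523 and 31.2 ± 5.79 TPM (2.19 ± 0.28, limma adjusted p = 1.00e-07). Cpsf3 had means of 75.9 ± 3.87 and 70.7 ± 6.95 TPM and was not called (-0.11 ± 0.07, limma adjusted p = 0.185). Itgb1bp1-201, at the gap, went from 6.69 to 10.8 TPM between 8 and 18 dpp. Itgb1bp1-202 and Itgb1bp1-206 start slightly further inside the gene, at chr12:21286185 and chr12:21286097 against chr12:21286284 for Itgb1bp1-201. Their starts thus also lie near the gap, and they went from 12.4 to 44.8 and from 8.73 to 25.7 TPM. Itgb1bp1 shares 196 exonic bases with Cpsf3 and 402 with Asap2, and Itgb3bp shares 398 with Pgm1, all on the opposite strand, so that part of these levels is uncertain.

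Among true chains above the filter, Itgae had the largest rise, and it met the filter of 3 TPM only at 16 and 18 dpp. It encodes the alpha E chain of lymphocytes in epithelia and was at 0.78, 0.4 and 1.22 TPM at 8 dpp and at 13.7, 11.6, 11, 4.28 and 4.9 TPM at 18 dpp (2.39 ± 0.26, limma adjusted p = 6.46e-09). Haspin, a histone kinase gene, lies in an intron of Itgae on the opposite strand (chr11:73135485-73138294) and had means of 5.34 ± 0.905 and 167 ± 89.8 TPM, and its part in the Itgae level was not tested. Col2a1 was at 1.88, 1.11 and 1.65 TPM and at 16.9, 13.4, 12.7, 5.21 and 5.92 TPM (2.11 ± 0.30, limma adjusted p = 7.10e-07). Mice 4 and 5 were the lowest at 18 dpp in both genes, as in the pachytene markers.

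The fibril-associated chains Col16a1 and Col20a1 rose as well. Col16a1 was at 24.1, 25.3 and 23.8 TPM at 8 dpp and at 50.2, 48.7, 48.6, 38.7 and 39 TPM at 18 dpp (0.85 ± 0.10, limma adjusted p = 2.06e-08). Col20a1 was at 0.77, 0.86 and 1.75 TPM and at 7.99, 6.52, 5.95, 5.63 and 4.87 TPM (1.77 ± 0.26, limma adjusted p = 1.37e-06). Neither overlapped between the ages. Col28a1, a filament-forming collagen, had means of 0.447 ± 0.126 TPM at 8 dpp, 3.48 ± 0.275 TPM at 16 dpp and 2.69 ± 0.293 TPM at 18 dpp. All 5 pachytene markers were higher at 18 than at 8 dpp, and their part in these rises was not tested.

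**Figure D3:**
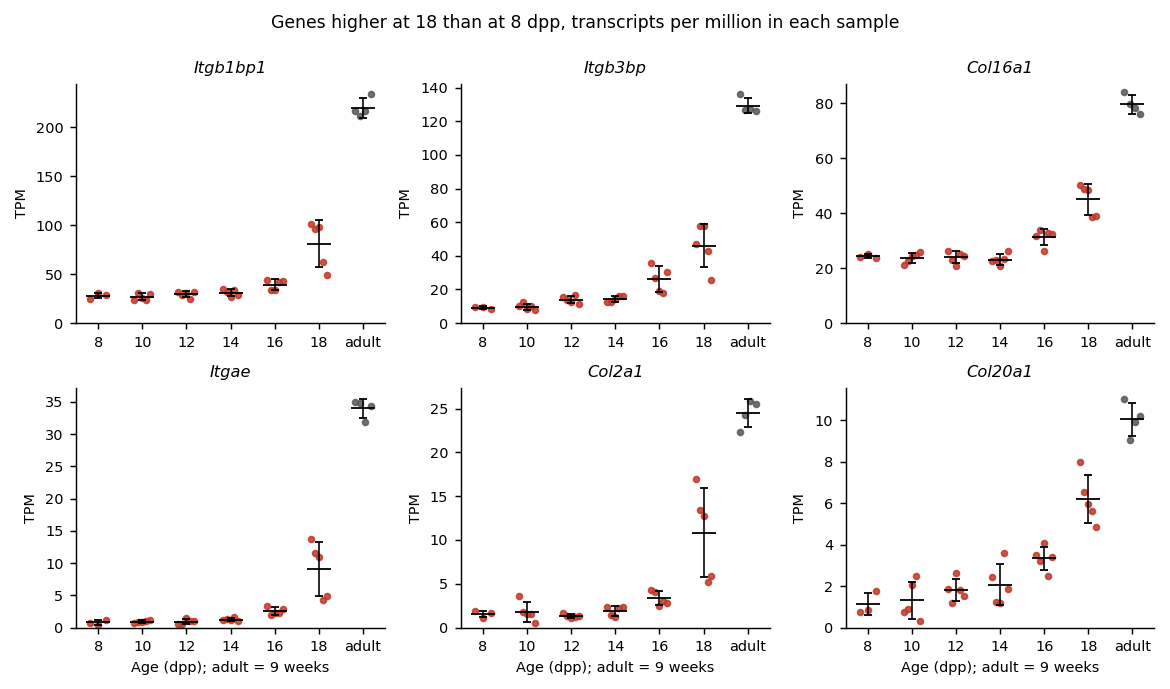
TPM of 6 genes higher at 18 than at 8 dpp in every sample, by age, with points for mice (adult points for pools of 6 mice) and black lines for the mean and SD. Each mean is higher at 18 than at 16 dpp, mice 4 and 5 are the lowest of 18 dpp in each panel, and adult samples are highest, with Itgb1bp1 at a mean of 219.7 TPM.

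Neighbouring ages were compared to place these differences in time. Between 8 and 10 dpp limma called 0 of the 68 genes (1.2% of all genes were called), and 3 had an unadjusted p under 0.05. Between 12 and 14 dpp limma again called 0 (0.172% of all genes), with 6 at an unadjusted p under 0.05. From 10 to 12 dpp 9 genes fell (9.39% of all genes) and 2 rose (12% of all genes). The 9 were Itga6, Itgb8, Itgad, Col18a1, Col9a2, Col11a1, Col6a6, Lama1 and Lama3, and the 2 were Lamb2 and Col28a1. Without mouse 4 of 10 dpp this step held 7 called genes instead of 11.

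From 14 to 16 dpp 6 genes fell (11.3% of all genes) and 4 rose (12.7% of all genes). Of the 4, Itgae and Col28a1 reached the 3 TPM of the filter only at 16 dpp or later, so their rises are not independent of it. Itgb8 (-0.69 ± 0.13) and Itga6 were again lower, with Itgav, Lama1, Lama3 and Col6a4, and Itgb3bp (0.78 ± 0.18), Itgae, Col28a1 and Col16a1 were higher. With mouse 5 of 18 dpp left out of the model, or with mice 1 to 3 of each age alone, 16 genes were called in this step instead of 10.

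The step from 16 to 18 dpp held the most called falls. In it 38 genes were lower (30.6% of all genes) and 7 were higher (23.4% of all genes). Of the 7, Itgad reached the 3 TPM of the filter only in mouse 2 of 18 dpp (3.1 TPM), and Itgae only at 16 and 18 dpp. Both entered the test through ages where they were high, so their rises are not independent of the filter. Lamb1 (-0.87 ± 0.16), Col5a1 (-0.82 ± 0.15) and Col9a2 (-0.81 ± 0.20) had the largest falls, and Itgae (1.40 ± 0.23), Col2a1 (1.35 ± 0.26) and Itgb1bp1 (0.98 ± 0.15) the largest rises. Of the 42 genes lower at 18 than at 8 dpp, 35 were also lower in this step alone and 8 were lower between 10 and 12 dpp. Over the 6 ages 58 of the 68 genes differed (77.6% of all genes). Per the labels, most libraries of 14 dpp and older carry the index sequence of a younger library, and no sequencing pools are named.

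Levels were also summed over each family, with no test. At 8, 14, 16 and 18 dpp the 44 collagen chains summed to 2451 ± 108, 2409 ± 309, 2132 ± 323 and 1402 ± 419 TPM (SD, n = 3, 5, 5 and 5). The 11 laminin chains summed to 649.7 ± 33, 673 ± 63.9, 565 ± 79.3 and 364 ± 112 TPM, with the highest mean at 14 dpp. The integrin chains summed to 607 ± 18.6, 516 ± 25.8, 429 ± 34.5 and 318 ± 52.6 TPM. For the collagen and laminin sums the difference in means was larger between 16 and 18 dpp than between 8 and 16 dpp, and for the integrin sum it was larger between 8 and 16 dpp. At the same ages the Sertoli marker sum was 7308 ± 461, 6319 ± 644, 5692 ± 763 and 3689.9 ± 492 TPM and the peritubular sum 1101 ± 55.1, 1436 ± 326, 1092 ± 269 and 741 ± 256 TPM, the latter with its highest mean at 14 dpp. Both marker sums had a lower mean at 18 than at 16 dpp, as the chains had, and their part in the fall was not tested.

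**Figure D4:**
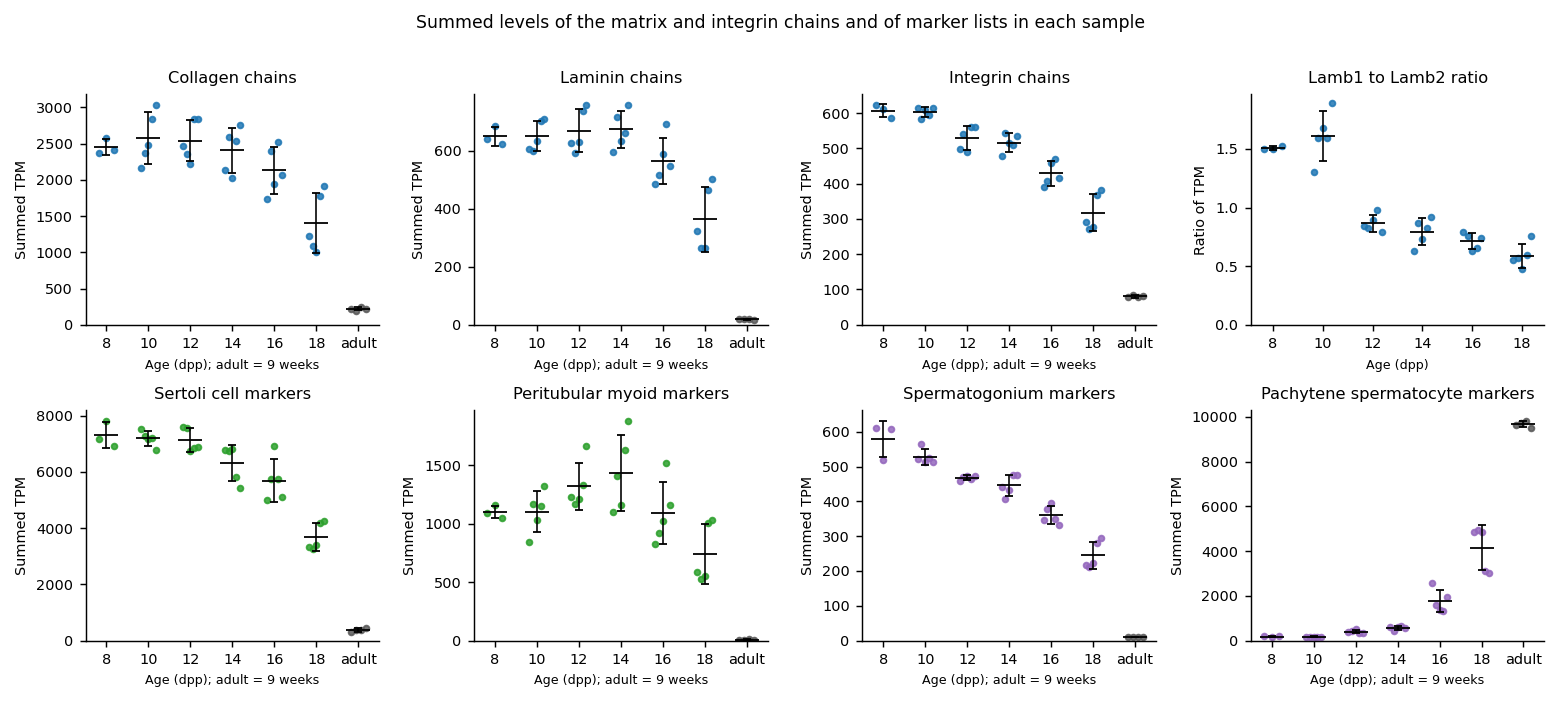
Summed TPM of collagen, laminin and integrin chains and of 4 marker lists, and the ratio of Lamb1 to Lamb2, in every sample by age, with points for samples and black lines for the mean and SD. The collagen, laminin, integrin, Sertoli, peritubular and spermatogonium sums of mice 4 and 5 are the highest of 18 dpp. The Lamb1 to Lamb2 ratio is below 1 from 12 dpp on, and the pachytene marker sum is highest in adult samples.

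Transcript usage was compared between the 8 mice of 8 and 10 dpp and the 10 mice of 16 and 18 dpp, taking each transcript as a share of its gene. Of 24 genes with 60 transcripts that could be tested, 3 genes with 5 transcripts changed by at least 20 percentage points (limma, adjusted p under 0.05), where 2.3% of all transcripts tested did. In Itgb3bp the share of Itgb3bp-203, which starts 100.6 kb upstream of Itgb3bp-204, went from 61.3% to 17.4% (change -43.9 ± 4.2 points, limma adjusted p = 2.37e-06), while its level was 5.73 and 4.13 TPM at 8 and 18 dpp. Itgb3bp-201 and Itgb3bp-204 went from 1.48 to 23.6 TPM and from 1.11 to 15.9 TPM. Both start near Efcab7, Itgb3bp-204 at chr4:99829186 and Itgb3bp-201 slightly further inside the gene at chr4:99829092. As assigned by RSEM, the rise of Itgb3bp was in the transcripts that start near the gap shown above. Of these, Itgb3bp-204 is annotated as protein-coding, while Itgb3bp-201, like Itgb3bp-203, is annotated as a processed transcript and not as protein-coding. The 398 exonic bases that Itgb3bp shares with Pgm1 on the opposite strand leave part of these levels and shares uncertain.

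In Col16a1 the transcript Col16a1-210, whose annotated start lies 8.15 kb downstream of that of Col16a1-201, went from 11 to 33.3 TPM between 8 and 18 dpp. Its share of the gene went from 44.9% to 65.3% (20.4 ± 4.08 points, limma adjusted p = 0.00246), while Col16a1-201 was at 3.62 and 7.25 TPM. This change in share lies close to the threshold of 20 points. In Col4a3bp, the ceramide transfer protein, Col4a3bp-201 went from 34% to 62.2% and Col4a3bp-202 from 41.1% to 13.3% of the gene.

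Itga6 shifted between its forms by less than 20 points. Itga6-201 includes exon 25 of 130 bases (chr2:71853534-71853663), which Itga6-202 skips. Inclusion gives the A form and skipping the B form of the cytoplasmic tail. The coding part of the exon, 105 bases, is shown because it sets these forms apart (GRCm38, GENCODE M21, plus strand, chr2:71853534-71853638).
Itga6 exon: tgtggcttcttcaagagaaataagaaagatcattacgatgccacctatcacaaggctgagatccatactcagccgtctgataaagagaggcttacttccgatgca
The share of the skipping transcript Itga6-202 was 33.8% ± 5.44 and 36.3% ± 4.83 (SD) in the mice of 8 and 10 dpp and 22.7% ± 1.76 and 22.4% ± 5.98 in those of 12 and 18 dpp, a change of -12.9 ± 2.61 points between the early and late ages (limma adjusted p = 0.00267). Its level went from 40 ± 6.77 TPM at 10 dpp to 17.9 ± 3.34 TPM at 12 dpp, while Itga6-201 was at 47.6 ± 6.61 and 44.5 ± 5.2 TPM. The share of Itga6-201 changed by 12.4 ± 3.98 points (limma adjusted p = 0.0456).

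**Figure D5:**
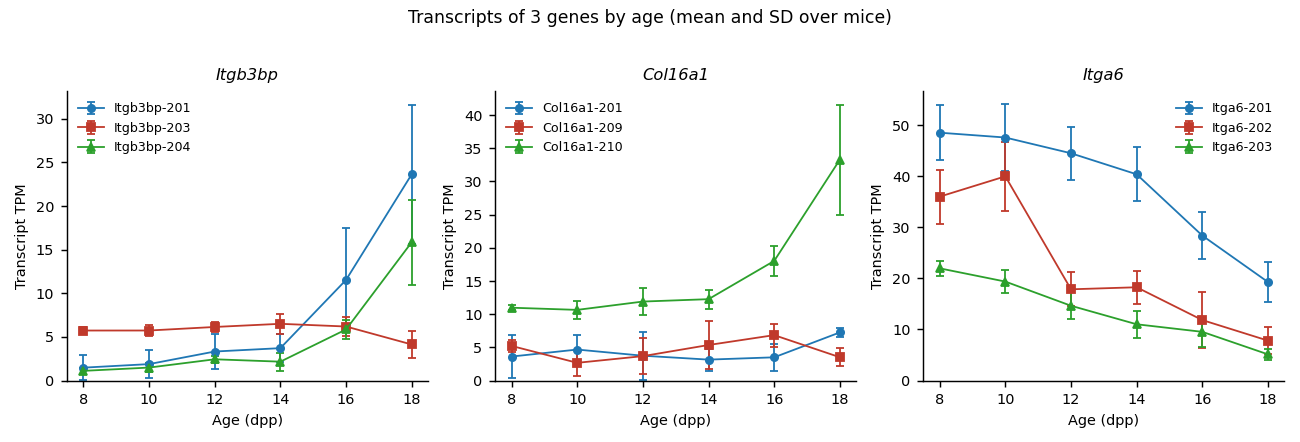
Mean TPM and SD over mice, by age in dpp, of 3 transcripts each of Itgb3bp, Col16a1 and Itga6. Itgb3bp-201 and Itgb3bp-204 are higher after 14 dpp while Itgb3bp-203 is not, Col16a1-210 reaches 33.3 TPM at 18 dpp, and Itga6-202 drops between 10 and 12 dpp while Itga6-201 is lower mainly after 14 dpp.

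Most chains were low in adult pachytene and diplotene samples. The adult table was normalized apart from the juvenile ones, so its levels are set beside them with no test. Of the 68 genes, 18 had an adult mean of at least 3 TPM, 34 were under 1 TPM, and 36 were more than 10 times lower than at 18 dpp. Col18a1 was at 5.52, 4.62, 4.71 and 5.2 TPM, Col4a1 at 1.21, 1.87, 1.63 and 1.09 TPM and Lamb1 at 1.09, 1.38, 1.23 and 1.11 TPM. Itgb5 (11.1 ± 1.52 TPM, SD, n = 4), Lama2 (7.74 ± 0.732 TPM) and Itgb1 (7.12 ± 0.698 TPM) were higher than these. Of the 42 genes lower at 18 than at 8 dpp, 0 were higher in adult samples than at 18 dpp, and 35 had an adult mean under 3 TPM.

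Adult levels were above the 18 dpp level in 11 genes, 6 of the 8 risers among them. Itgb1bp1 was at 217, 211, 217 and 234 TPM, Itgb3bp at 136, 127, 128 and 126 TPM and Col16a1 at 84, 79.9, 78.4 and 76.2 TPM. Itgae was at 35, 34.8, 31.9 and 34.3 TPM and Col2a1 at 22.3, 24.3, 25.8 and 25.5 TPM. Each adult sample was above each mouse of 18 dpp in these 5 genes. Col22a1, a fibril-associated chain, had means of 6.67 ± 1.77 TPM at 18 dpp and 46.7 ± 20 TPM in adult samples. The 6 spermatid markers summed to between 6.13 and 17 TPM at 18 dpp and between 872 and 1189 TPM in adult samples, and their part in these adult levels was not tested. The risers that were not above their 18 dpp level were Itgb2, at 0.355 ± 0.241 TPM, and Col28a1, at 1.96 ± 0.495 TPM.

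Genes that make, modify and bind the matrix were counted from lists of their own. Of 15 tested genes for collagen processing 10 were lower at 18 than at 8 dpp and 0 were higher, where 36.3% of all genes were lower and 31.8% were higher, and their median difference was -0.59 against -0.09 for all genes. They include P4hb, a subunit of prolyl 4-hydroxylase (329 ± 5.83 to 235 ± 35.6 TPM), and Bmp1, the protease that removes the C-terminal propeptide (49.2 ± 0.779 to 15.6 ± 4.16 TPM, -1.63 ± 0.15). All 15 were lower at 18 than at 16 dpp, where 30.6% of all genes were lower. Of 11 other matrix and basement membrane genes 9 were lower and 0 were higher (36.3% and 31.8% of all genes, median -0.78 against -0.09), with Sparc, a collagen-binding glycoprotein, going from 2162 ± 107 to 1336 ± 332 TPM and the matrix glycoprotein Thbs1 from 49.7 ± 5.52 to 13.4 ± 1.04 TPM. Of 15 integrin adaptors 11 were lower and 3 were higher (36.3% and 31.8% of all genes, median -0.64 against -0.09). Zyx, the focal adhesion protein zyxin, went from 377 ± 19.3 to 121 ± 23.8 TPM (-1.64 ± 0.11). Lims2, an adaptor of integrin-linked kinase, went the other way from 5.49 ± 1.75 to 19.7 ± 2.66 TPM (1.70 ± 0.20) and was at 35 ± 2.59 TPM in adult samples.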

How the data were processed

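Per the study's methods, filtered 100 bp paired-end reads of poly-A libraries were aligned by the authors (Bowtie 1.0.0) to transcripts of Ensembl release 75, of NONCODE 4 and of piRNA precursors, and RSEM 1.2.8 gave TPM. Transcripts of juvenile mice and genes of adult samples were deposited in TPM. The deposited juvenile gene table was planned for as TPM but held exp(log2(TPM + 1)) - 1, and was converted. The 68 genes were then within 0.02 TPM of their summed transcripts. TPM gives no read numbers, so no counting error could be computed, and p-values measure the spread between mice.

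For each age comparison limma 3.58.1 (R 4.3.3) was run on log2(TPM + 1), in 1 model of the 6 ages with a prior variance that follows mean expression, over the 20368 genes of the table. Usage was tested on 23830 transcripts, in genes that reach 3 TPM in both age groups and have more than 1 transcript reaching 1 TPM. The scripts were tested on simulated data. Promoter windows came from RefSeq on GRCm38.p6. Sums, ratios and figures used Python 3.11.15 with pandas 2.3.3, numpy 2.4.6 and matplotlib 3.10.9.

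Genes, lists and tests were chosen with earlier results of these data known. The named genes were, per role, the highest in level and the largest called difference, the 6 largest rises, the 5 highest in adult samples, symbol matches, genes with changed usage and at most 2 per other list. Further genes, the neighbours on the other strand and the split of mice at 18 dpp were named after their values were seen.

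Alternatives were another pseudocount (0.1), filter, scaling, prior, set of ages or mice, a replicate block, and leaving out each mouse in turn.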

Additional observations from a re-analysis of the deposited data

Results flagged for a closer look

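In the adult samples, 4 single values lay far from the other 3 by Dixon's gap ratio at the 95% level. Chance flags about 1 in 20 groups, and 52 groups of 4 or 5 samples were examined. Col6a1 was at 1.24 TPM in adult sample 2 and between 0.75 and 0.82 TPM in the others. Col9a2 was at 0.08 TPM in sample 3 and at 0 in the others. Itgb3bp was at 136.03 TPM in sample 1 and between 126 and 128 TPM in the others. Itgb8 was at 0 TPM in sample 2 and between 0.05 and 0.06 TPM in the others.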

How the results depend on the processing

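From 14 to 16 dpp 16 genes were called with mice 1 to 3 of each age alone, against 10, and 6 genes changed usage with a threshold of 10 points in place of 20, against 3. Under the other alternatives that keep all mice, every count of called genes stayed within 1.5 times its reported value. Leaving out each mouse in turn gave 38 to 43 lower and 8 to 9 higher genes between 18 and 8 dpp, 57 to 60 differing among ages, 7 to 13 from 10 to 12 dpp, 7 to 16 from 14 to 16 dpp, 37 to 47 from 16 to 18 dpp, 0 to 0 from 8 to 10 and from 12 to 14 dpp, and 2 to 3 with changed usage. Leaving out each adult sample gave 18 to 18 genes of at least 3 TPM. Lamb2 reversed between 18 and 8 dpp, to 0.013 with median-of-ratios factors, and the cause was not tested. With these factors the median of all genes moved from -0.09 to 0.05, all genes split into 7589 higher and 5991 lower against 6487 and 7402, and the 68 genes into 9 higher and 37 lower. With quantile normalization the median was -0.26, and the splits were 5532 and 9148, and 7 and 51. The call of Col4a3bp was lost with median-of-ratios factors (limma adjusted p = 0.176) and that of Lamc3 with only the ages compared in the model (limma adjusted p = 0.075).

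Mouse numbers did not pair the samples, since deviations of same-numbered mice correlated between -0.248 and 0.253. With the mouse number as a replicate block 46 genes were lower and 8 higher, 57 differed among ages, 14, 15 and 47 were called from 10 to 12, 14 to 16 and 16 to 18 dpp, and 3 changed usage. Depth is unknown, so the error of values under 1 TPM cannot be given.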
